A study of Mus musculus with 15 samples.

Results

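The genes described here are 44 mouse genes whose products carry out mitosis and cytokinesis. They were chosen by function and matched by symbol, with earlier results of these data known, among 21669 genes with a symbol. RNA-seq measured them in 5 groups of cells of female C57BL/6J mice. Naive B cells (nB) were CD43- cells of the spleen, not cultured. Plasmablasts (Pb, CD138+) and activated B cells (actB, sorted as B220+GL7+ and CD138-) came from 3-day cultures of such cells with either 2 μM GSK343 or DMSO. GSK343 inhibits EZH2, the enzyme that places H3K27me3, and DMSO is its vehicle. The mice were wild-type and 6 to 9 weeks old, and all cultured cells had received LPS, IL2, and IL5, except that IL6 stands in place of IL5 in the labels of GSK343-treated Pb. If those labels hold, the cytokine and the inhibitor cannot be told apart in any comparison that uses Pb with GSK343. Each group has 3 libraries as deposited. The study calls the libraries of a cell type biological replicates and the labels number them, but the sources used here do not say whether a number stands for a separate mouse or culture, so p-values measure the spread between these libraries, which may be technical.

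Mitosis is prepared in G2, when cyclins A2 and B accumulate and activate the kinase CDK1. Spindle motors and microtubule-associated proteins then build the spindle, the checkpoint holds the cell until all kinetochores are attached, and the anaphase-promoting complex with CDC20 and UBE2C releases separase from securin. A central spindle and a contractile ring finally divide the cell. Most of these genes are transcribed late in the cell cycle, from promoters that are kept silent in quiescent cells. The cell cycle genes homology region (CHR, TTTGAA) is a promoter element bound by the MuvB complex, which acts with B-MYB and FOXM1 in dividing cells and as part of DREAM in resting ones, and CCAAT is the element of NF-Y. Naive B cells are resting cells, and stimulation with LPS drives them through several divisions before plasmablasts appear.

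The promoters are shown first because most of the 36 genes with a promoter in the table hold elements that the choice of genes did not use. RefSeq promoters (GRCm38.p6, 250 bases before to 50 after each start) were given for 36 of the 44 genes. A gene was counted once if any of its promoters held the element, over 27025 genes with a promoter. TTTGAA, searched on both strands, was in the promoters of 27 of the 36 (75.0%), and of 20.2% of all genes. It lay within 50 bases of the start in 25 of the 36 (69.4%), against 5.72% of all genes. CCAAT, also on both strands, was in 26 of the 36 (72.2%) and in 41.1% of all genes. Both elements were in 23 of the 36 (63.9%) and in 7.97% of all genes, and no TTTGAA of these genes overlapped a CCAAT. The CHR variant TTCGAA was in 3 of the 36, against 1.80% of all genes, and GCGGGAA, an E2F-like element, was in 0 of the 36, against 5.29%. None of these elements was found in the windows of Birc5, Knstrn, Mad2l1, Nuf2, Nusap1, and Pttg1. These are matches of letters and not mapped binding sites.

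The lines that follow give the 100 bases before the start of 8 genes, read 5′ to 3′ on the gene's strand. Capitals mark TTTGAA or CCAAT on either strand, so that they also read TTCAAA or ATTGG. Apart from Pttg1, genes were taken only from those with TTTGAA wholly in the last 50 of these bases. The presence of TTTGAA in them was therefore set by this choice. Of these, Cdk1, Cdc20, and Ube2c were higher in Pb than in actB, and Kif15 and Top2a were lower. Espl1 and Kif11 did not pass the test. Pttg1 is shown because it was the only one of the 44 that was lower in cultured than in naive cells. Among genes with a promoter in the table, TTTGAA was in 4 of 4 that were higher in Pb, in 5 of 8 that were lower, and in 18 of 24 that did not pass.
Cdk1: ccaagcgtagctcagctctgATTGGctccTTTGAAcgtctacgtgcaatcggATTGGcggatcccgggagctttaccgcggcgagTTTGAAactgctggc
Cdc20: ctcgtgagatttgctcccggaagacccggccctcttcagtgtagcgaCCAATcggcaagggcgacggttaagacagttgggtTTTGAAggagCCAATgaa
Ube2c: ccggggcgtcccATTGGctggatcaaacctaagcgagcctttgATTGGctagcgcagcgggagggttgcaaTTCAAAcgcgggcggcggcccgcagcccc
Kif15: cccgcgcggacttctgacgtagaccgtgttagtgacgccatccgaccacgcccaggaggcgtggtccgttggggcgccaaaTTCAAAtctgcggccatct
Top2a: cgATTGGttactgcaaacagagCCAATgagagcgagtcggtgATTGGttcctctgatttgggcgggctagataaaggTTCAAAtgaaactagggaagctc
Espl1: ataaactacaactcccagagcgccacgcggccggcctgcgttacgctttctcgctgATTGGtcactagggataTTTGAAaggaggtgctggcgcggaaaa
Kif11: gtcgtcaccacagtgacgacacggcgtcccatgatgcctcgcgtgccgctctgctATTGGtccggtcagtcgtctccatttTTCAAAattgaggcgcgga
Pttg1: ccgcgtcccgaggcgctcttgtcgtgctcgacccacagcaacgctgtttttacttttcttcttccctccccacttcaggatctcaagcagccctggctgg
In GRCm38.p6 these are chr10:69352913-69353012 on the minus strand for Cdk1, chr4:118437344-118437443 on the minus strand for Cdc20, and chr2:164769829-164769928 on the plus strand for Ube2c. Those of the genes that were lower in Pb are chr9:122950981-122951080 on the plus strand for Kif15 and chr11:99024190-99024289 on the minus strand for Top2a. The others are chr15:102296193-102296292 on the plus strand for Espl1, chr19:37376282-37376381 on the plus strand for Kif11, and chr11:43425982-43426081 on the minus strand for Pttg1. Cdc20 carried TTTGAA and CCAAT close together before its start, Top2a carried 3 CCAAT elements in this window, and Pttg1 carried none of either. Starts were used as given and were not checked in these cells, so what is absent for Pttg1 is absent from this window only.

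Between 19421830 and 26307413 reads were counted per library, and a count of 0 allows up to 3 reads, 0.114 to 0.154 RPM (reads of a gene scaled by the reads counted in its library). nB replicates 1 and 2 held the same library, differing by less than the sampling noise, and were counted as 1 sample, so that nB has n = 2 and the other groups n = 3. Summed markers followed the labels: 5 B cell genes summed to 3076 to 3204 RPKM in nB, 1645 to 1880 in actB with DMSO, and 903 to 926 in Pb with DMSO, and 5 plasma cell genes to 214 to 231, 485 to 522, and 3065 to 3215 RPKM. In these 3 groups Sdc1, the gene of CD138, had means of 5.17, 0.665, and 29.7 RPKM, and Irf4 of 119.7, 109.5, and 371.9. The other plasma cell genes, Prdm1, Xbp1, and Jchain, had higher means in actB than in nB. The nB libraries also held transcripts of other cells, with 7 myeloid genes at 194.5 to 238.5 RPKM in sum, 166 of them from Lyz2, 6 T and NK cell genes at 17.3 to 19.0, and erythroid genes at 82.6 to 304.8. All 6 T and NK cell genes together stayed at or below 0.82 RPKM in every cultured library, and S100a8 and S100a9 were at 0 reads there. Other such transcripts remained: erythroid genes summed to 9.34 to 19.0 RPKM in actB and 1.41 to 2.87 in Pb. Itgam had a mean of 4.02 RPKM in nB, and in actB of 4.27 with DMSO and 9.95 with GSK343. The part of these cells in any result below was not tested. In bulk RNA, fewer cells that express a gene and less RNA of it per cell cannot be told apart.

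All 44 genes were tested, among 11299 genes that reached 1 RPKM (RPM per kilobase of gene length) in at least 3 of the 15 columns. In nB 33 of the 44 were at 1 RPKM or more in both libraries, and the others passed this filter only through the cultured groups. Of the 44 genes 9 had a mean under 1 RPKM in nB. Fold changes are differences of log2(RPKM + 0.25), which understates changes of genes that low. Their spread and adjusted p come from limma over all 5 groups, adjusted over all genes tested, and a gene is said to have risen or fallen only at an adjusted p under 0.05. The median of the 44 mean levels was 2.07 RPKM in nB. With DMSO it was 35.0 RPKM for actB and 33.6 for Pb, and with GSK343 it was 36.6 and 32.8. Their share of all reads counted was 0.0537 and 0.0597% in nB, and with DMSO 0.783 to 0.957% in actB and 0.927 to 1.01% in Pb. With GSK343 it was 0.852 to 1.02% in actB and 0.894 to 0.992% in Pb. Cenpa stood highest in nB at a mean of 33.0 RPKM, Top2a in actB with DMSO at 191.6, and Mki67 in Pb with DMSO at 281.6, and the lowest were Cdc25c in nB (0.474 RPKM) and Pttg1 in every cultured group (6.84 to 8.69 RPKM).

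**Figure D1:**
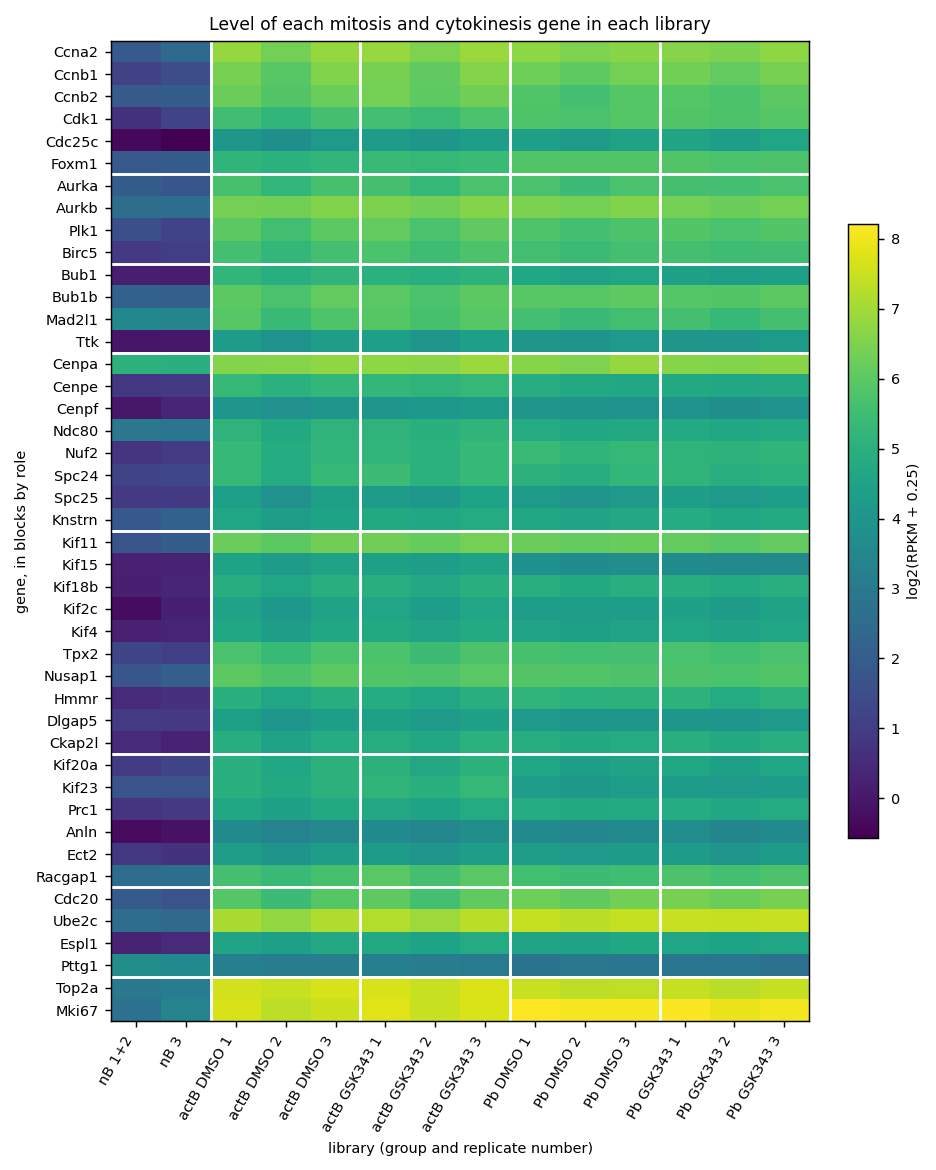
Level of the 44 genes in each of 14 libraries, as log2(RPKM + 0.25) in color, with 1 row per gene in blocks by role, 1 column per library, and white lines between groups. The 2 nB columns are dark for nearly all genes, with Cenpa as the brightest row there, and Pttg1 is the row that is brighter in nB than in the cultured libraries.

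One feature of the cultures bears on the comparisons between cultured groups below. Libraries of replicate number 2 had the lowest level of their group for 43 of the 44 genes in DMSO-treated actB, 42 in GSK343-treated actB, 39 in DMSO-treated Pb, and 42 in GSK343-treated Pb, where 40.4 to 43.7% of all genes tested were lowest in number 2. The median log2 difference of number 2 from the mean of its group's other libraries was -0.34 for the 44 genes in DMSO-treated actB, -0.26 in GSK343-treated actB, and -0.13 in either group of Pb. Libraries with the same number deviated together across groups, so the cultured cells were also compared with a block for the replicate number, with the adjusted p given where it changed a call. Counts without number 2 are given for each comparison of cultured groups that called a gene.

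To determine how the mitotic genes differ between resting and stimulated B cells, actB with DMSO was compared with nB. Of the 44 genes 43 rose and 1, Pttg1, fell, with a median log2 fold change of 4.13 (17.6-fold). Among all genes tested 40.9% rose and 36.3% fell. No gene had overlapping levels, with 43 above and 1 below, against 44.2 and 39.2% of all genes tested. Ccnb1 rose most, 31.4-fold, followed by Bub1, Top2a, and Kif18b. Each of these 44 calls held under every alternative run and with each library left out.

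Genes of mitotic entry rose by 3.19 to 4.97 on the log2 scale. Cdk1, the kinase that starts mitosis, was at 1.41 and 2.11 RPKM in nB and 45.6, 37.0, and 48.6 in actB, a log2 fold change of 4.46 ± 0.15 (SE, adjusted p = 3.95e-11). Its cyclin Ccnb1 was at 1.996 and 2.58 RPKM in nB and 85.4, 61.2, and 93.8 in actB, and rose by 4.97 ± 0.19 (SE, adjusted p = 1.63e-10). A search of mm9 found 2 near-identical copies of Ccnb1, the closest covering 61.1% of its transcript at 96.6% identity, so its level is uncertain where reads match both. Ccnb2, the other mitotic B-type cyclin, was at 3.63 and 3.80 RPKM in nB against 75.4, 58.0, and 74.2 in actB. Ccna2, cyclin A2 of S and G2 phase, was at 3.43 and 5.11 against 113, 82.1, and 113 RPKM. Both rose, by 4.12 ± 0.13 (SE, adjusted p = 3.42e-11) and 4.52 ± 0.17 (SE, adjusted p = 1.58e-10). Cdc25c, a phosphatase that activates CDK1, was at 0.524 and 0.425 RPKM in nB, the lowest of all 44, and at 16.5, 13.9, and 17.9 in actB. Foxm1, the transcription factor of this program, was at 3.53 and 3.68 against 35.9, 32.6, and 36.6 RPKM and rose by 3.19 ± 0.061 (SE, adjusted p = 7.87e-13), the smallest rise of the group.

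The kinases and the passenger complex, which corrects wrong attachments of chromosomes, rose by 3.61 to 4.5. Plk1, which acts from entry to cytokinesis, was at 2.74 and 2.07 RPKM in nB and 63.9, 46.9, and 63.4 in actB. Aurka, the spindle pole kinase, was at 3.81 and 3.21 against 50.8, 37.3, and 50.1 RPKM. Aurkb, the kinase of the passenger complex, was at 5.63 and 5.87 against 83.7, 80.8, and 93.6 RPKM, and its partner Birc5 (survivin) at 1.61 and 1.83 against 48.4, 37.5, and 48.0. All 4 passed the test, and Birc5 rose most, by 4.5 ± 0.11 (SE, adjusted p = 5.78e-12). Among the 4 checkpoint genes Bub1, a kinase of the kinetochore, was at 0.888 and 0.851 RPKM in nB and 37.2, 30.7, and 35.8 in actB, a rise of 4.95 ± 0.087 (SE, adjusted p = 6.72e-13). Ttk (MPS1), which starts checkpoint signaling, was at 0.697 and 0.754 against 19.1, 14.9, and 19.6 RPKM. Mad2l1, the inhibitor of CDC20 that the checkpoint makes, was already at 11.4 and 10.6 RPKM in nB and reached 61.4, 41.2, and 55.8, which is a rise of 2.22 ± 0.15 (SE, adjusted p = 4.35e-08). Bub1b, the pseudokinase of the checkpoint complex, rose by 3.81 ± 0.11 (SE, adjusted p = 1.13e-11).

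Centromere and kinetochore genes had the lowest median of the roles, 3.55, and rose by 1.61 to 4.31 over 8 genes. Cenpa, the histone H3 variant that marks centromeres, was at 33.7 and 32.2 RPKM in nB, the highest level of any of the 44 there, and at 96.3, 98.9, and 109 in actB. It rose by 1.61 ± 0.087 (SE, adjusted p = 3.81e-09), 3.05-fold. Ndc80, which gives its name to the complex that binds microtubules, was at 7.28 and 7.06 against 34.9, 27.0, and 34.8 RPKM and rose by 2.12 ± 0.10 (SE, adjusted p = 1.08e-09). Its partners in that complex, Nuf2, Spc24, and Spc25, started lower, at means of 1.62, 2.15, and 1.65 RPKM in nB, and rose by 4.23, 3.88, and 3.28. In actB the 4 subunits stood at means of 32.2 (Ndc80), 35.0 (Nuf2), 35.5 (Spc24), and 18.4 RPKM (Spc25).

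The 10 spindle motors and assembly factors rose by 3.33 to 4.53. Kif11 (Eg5), which pushes the spindle poles apart, was at 3.01 and 3.82 RPKM in nB and 74.2, 64.2, and 79.1 in actB. Tpx2, which nucleates spindle microtubules and activates Aurora A, was at 2.15 and 1.83 against 51.8, 41.6, and 52.1 RPKM. Kif18b, a kinesin that acts on astral microtubules, was at 0.898 and 1.05 against 29.5, 24.1, and 30.6 RPKM, and rose most of the 10, by 4.53 ± 0.11 (SE, adjusted p = 4.52e-12). The 6 cytokinesis genes rose by 2.97 to 3.82, from Racgap1 at the low end to Prc1 at the high end. Kif23, the motor of centralspindlin, was at 2.94 and 2.93 RPKM in nB and 32.0, 26.8, and 33.6 in actB. Prc1, which bundles the central spindle, was at 1.44 and 1.59 against 25.8, 21.9, and 26.9 RPKM, and Anln (anillin), of the contractile ring, at 0.560 and 0.669 against 12.2, 10.01, and 11.7. None of these had an actB library near the nB levels. Top2a, which untangles sister chromatids, was at 7.29 and 8.52 RPKM in nB and 193, 176, and 205 in actB, and Mki67, which coats mitotic chromosomes, at 6.49 and 10.1 RPKM in nB and 202, 161, and 186 in actB. They rose by 4.56 ± 0.089 (SE, adjusted p = 7.87e-13) and 4.45 ± 0.16 (SE, adjusted p = 7.26e-11).

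The anaphase genes split. Cdc20, the activator of the anaphase-promoting complex, was at 3.49 and 2.96 RPKM in nB and 59.7, 43.1, and 59.9 in actB, and rose by 3.96 ± 0.16 (SE, adjusted p = 3.05e-10). Ube2c, the ubiquitin-conjugating enzyme of that complex, was at 5.70 and 5.28 against 138, 110.3, and 143 RPKM, and Espl1 (separase), which cuts cohesin, at 0.999 and 1.15 against 23.4, 20.6, and 26.5. These 3 rose together, by 3.96 to 4.5. Pttg1 (securin), the inhibitor of separase, went the other way: it was at 13.3 and 12.2 RPKM in nB, 9.07, 8.34, and 8.67 in actB, and 6.75, 7.55, and 7.06 in Pb with DMSO. Its level fell by 0.54 on the log2 scale in actB (SE 0.077, adjusted p = 3.28e-05), and by 0.82 in Pb (SE 0.077, adjusted p = 4.94e-07), and the 3 sets of libraries did not overlap. Pttg1 lies at chr11:43233752-43239753 in mm9, and no copy and no shared exon base was found for it in the annotation.

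Plasmablasts with DMSO were compared with nB in the same way, using the same nB libraries. Again 43 genes rose and Pttg1 fell, with a median log2 fold change of 3.94 (15.4-fold), where 39.5% of all genes tested rose and 41.1% fell. All 44 lay outside the nB range, as did 42.7% of all genes tested above it and 44.2% below. Mki67 rose most, 33.7-fold, followed by Ccnb1, Ube2c, and Cdc25c at 29.9-, 29.3-, and 29.0-fold. The smallest rises were again those of Mad2l1 (2.01 ± 0.15, SE), Ndc80 (1.86 ± 0.10), and Cenpa (1.6 ± 0.087). Since both comparisons use the same naive libraries, their likeness is not a second observation.

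**Figure D2:**
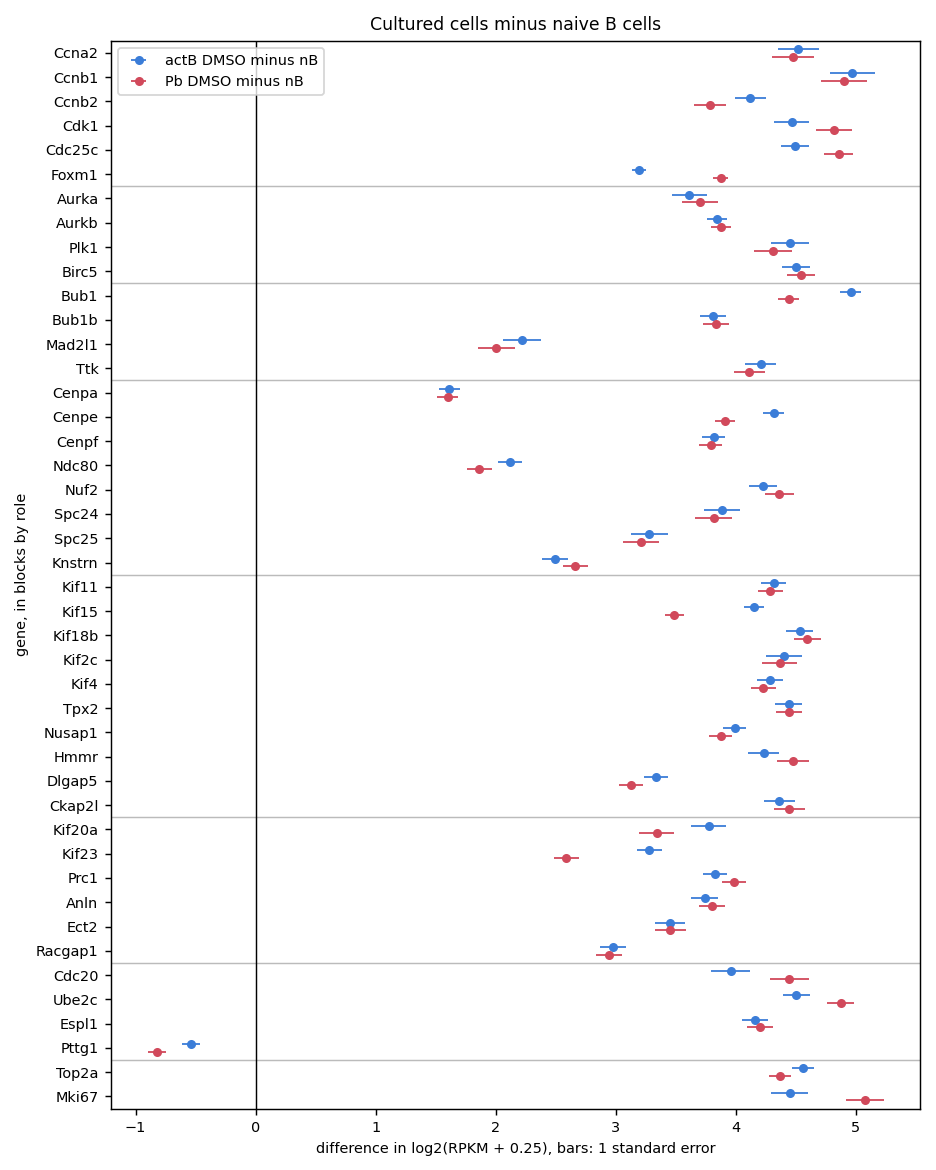
Difference in log2(RPKM + 0.25) of actB with DMSO (blue) and Pb with DMSO (red) from nB for each of the 44 genes in blocks by role, with bars of 1 standard error. All points lie to the right of 0 except those of Pttg1, at -0.54 and -0.82.

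Of 144 other genes that serve mitosis, in 8 lists, 119 rose and 14 fell in actB against nB, or 82.6 and 9.72%, beside 40.9 and 36.3% of all genes tested. Their median log2 fold change was 1.28, beside 4.13 for the 44. All 11 genes of the checkpoint and shugoshin list rose, led by Sgol1 (4.47 ± 0.12, SE) and Kntc1 (4.24 ± 0.076), and so did 29 of 30 centromere and kinetochore genes, led by Ska1 (4.28 ± 0.18) and Ska3 (3.997 ± 0.12). Among 15 entry kinases and phosphatases 14 rose, led by Nek2 (4.39 ± 0.11) and Gtse1 (3.998 ± 0.11), and Ensa fell (-0.24 ± 0.062). Of 26 spindle and centrosome genes 23 rose, led by Psrc1 (4.85 ± 0.16) and Spag5 (4.28 ± 0.13), and Numa1 (-0.86 ± 0.049) and Haus8 (-0.73 ± 0.099) fell. Of 16 genes of the anaphase-promoting complex and its regulators 13 rose, with Fbxo5 (1.88 ± 0.10), the inhibitor of the complex, ahead of Ube2s (1.48 ± 0.14), and Anapc2 fell (-0.28 ± 0.070). Condensin and cohesin genes rose in 16 of 20, led by Ncapg (4.82 ± 0.089) and Esco2 (4.45 ± 0.10), and Esco1, Stag2, and Nipbl were the 3 that fell (-0.80, -0.54, and -0.49). Cytokinesis and abscission genes were the most divided list, with 9 of 17 that rose, led by Cep55 (4.15 ± 0.10) and Kif14 (3.89 ± 0.13), and 5 that fell, among them Rhoa (-0.61 ± 0.057), Sept9 (-0.33 ± 0.055), and Tsg101 (-0.29 ± 0.082). Of the 9 genes of MuvB, B-MYB, and NF-Y, the factors that read the CHR and CCAAT elements, 4 rose and 2 fell, shares of 44.4 and 22.2% that lie near or under those of all genes, with Mybl2 (B-MYB) far ahead at 4.84 ± 0.13 and Lin54 next at 0.60 ± 0.11, and Lin52 (-0.57 ± 0.072) and Nfya (-0.26 ± 0.048) fell.

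Next, Pb were compared with actB, both with DMSO, to set the mitotic genes of cells that have acquired CD138 beside those of activated cells, also from 3-day cultures. Most of the 44 genes did not pass the test: 6 rose, 9 fell, and 29 were not called, with a median log2 fold change of -0.029. Among all genes tested 27.3% rose and 42.4% fell, with a median of -0.12. Genes that rose were Foxm1, Mki67, Cdc20, Ube2c, Cdc25c, and Cdk1, and genes that fell were Kif23, Kif15, Bub1, Kif20a, Cenpe, Ccnb2, Pttg1, Ndc80, and Top2a. With the replicate number as a block, 9 rose and 12 fell, against 30.1 and 46.1% of all genes tested. Those added as higher were Hmmr (adjusted p = 0.00546 with the block), Knstrn (0.0082), and Prc1 (0.0245), and those added as lower were Mad2l1 (0.00924), Dlgap5 (0.018), and Plk1 (0.0371). The split depended on how libraries were scaled, and scaling to equal medians gave 10 that rose and 5 that fell. The median turned above 0 with it (0.082), since the median of all genes moved to -0.0048. Without number 2 the counts were 5 and 12, with a median of -0.085, and without single libraries the median lay between -0.12 (actB replicate 2) and 0.037 (actB replicate 3). Every Pb library was above every actB library for 8 of the 44 genes and below for 7, against 28.6 and 43.3% of all genes tested.

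Foxm1 rose most. It was at 35.9, 32.6, and 36.6 RPKM in actB and 56.3, 56.2, and 56.4 in Pb, and its log2 fold change was 0.68 ± 0.055 (SE, adjusted p = 2.43e-07). The Pb libraries were almost equal to one another and all above every actB library. Mki67 was at 202, 161, and 186 RPKM in actB and 296, 275, and 274 in Pb, a rise of 0.63 ± 0.14 (SE, adjusted p = 0.00149). Per length its level in Pb was above that of Top2a, which fell from 193, 176, and 205 to 176, 159.7, and 167 RPKM (-0.19 ± 0.080 SE, adjusted p = 0.0478).

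Both CDC20 and UBE2C, the partners of the anaphase-promoting complex, rose at the RNA level. Cdc20 was at 59.7, 43.1, and 59.9 RPKM in actB and 77.3, 67.6, and 81.6 in Pb (0.49 ± 0.15 SE, adjusted p = 0.00989), and Ube2c at 138, 110.3, and 143 in actB and 172, 159, and 172 in Pb (0.37 ± 0.10 SE, adjusted p = 0.00663). Espl1 was at 23.4, 20.6, and 26.5 in actB and 23.5, 22.9, and 25.6 RPKM in Pb, which overlap. Pttg1, whose levels are given above, fell further in Pb, with a log2 fold change of -0.28 ± 0.069 (SE, adjusted p = 0.00295), so that securin was the one anaphase gene of the 4 that fell.

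The entry genes moved in both directions. Cdk1 was at 45.6, 37.0, and 48.6 RPKM in actB and 55.7, 51.9, and 59.2 in Pb (0.35 ± 0.13 SE, adjusted p = 0.0296), and its activator Cdc25c at 16.5, 13.9, and 17.9 in actB and 20.7, 19.1, and 22.4 in Pb (0.36 ± 0.11 SE, adjusted p = 0.00905). Both had every Pb library above every actB library. Ccnb2 was at 75.4, 58.0, and 74.2 in actB and 56.7, 48.0, and 58.8 RPKM in Pb (-0.34 ± 0.12 SE, adjusted p = 0.0222), and its number 2 library in actB lay below the highest Pb library. Ccnb1 was at 85.4, 61.2, and 93.8 in actB and 77.4, 65.5, and 83.4 RPKM in Pb and did not pass the test, with a 95% interval of its log2 difference of -0.46 to 0.32. Ccna2 was at 113, 82.1, and 113 in actB and 105, 91.2, and 100.03 RPKM in Pb, with an interval of -0.39 to 0.31.

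Kif23 fell most. It was at 32.0, 26.8, and 33.6 RPKM in actB and 20.05, 16.9, and 19.9 in Pb, a log2 fold change of -0.69 ± 0.093 (SE, adjusted p = 2.58e-05). Kif15, a plus-end motor that can keep the spindle bipolar beside Kif11, was at 22.8, 19.0, and 22.3 in actB and 14.03, 12.6, and 13.5 RPKM in Pb (-0.66 ± 0.072 SE, adjusted p = 4.18e-06). Kif20a, which brings the passenger complex to the central spindle, was at 32.0, 25.0, and 33.0 in actB and 23.6, 19.97, and 22.5 in Pb (-0.43 ± 0.13 SE, adjusted p = 0.0101). All 3 had the highest Pb library below the lowest actB library. Of the exon bases of Kif20a 32.3% also belong to Cdc23 on the other strand, and whether counting used strand is not given in the sources used here. Kif11 was at 72.7, 67.8, and 71.6 RPKM in Pb, with an interval against actB of -0.24 to 0.18.

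Bub1 was at 37.2, 30.7, and 35.8 RPKM in actB and 25.3, 22.2, and 24.8 in Pb, a log2 fold change of -0.51 ± 0.078 (SE, adjusted p = 7.57e-05), with no overlap. Cenpe, the kinesin that carries chromosomes to the metaphase plate, was at 39.8, 32.3, and 37.5 in actB and 29.6, 26.8, and 25.9 RPKM in Pb (-0.41 ± 0.076 SE, adjusted p = 0.000409). Ndc80 was at 34.9, 27.0, and 34.8 in actB and 27.9, 25.3, and 27.1 in Pb (-0.26 ± 0.090 SE, adjusted p = 0.0224), where the groups overlap. The closest genes to no difference were Ect2, an activator of RhoA, at 20.1, 15.4, and 20.4 in actB and 19.5, 17.3, and 18.8 RPKM in Pb, Tpx2 at 50.6, 46.5, and 48.2 RPKM in Pb, Cenpa at 97.4, 91.5, and 113, and Bub1b at 60.6, 60.5, and 64.5, with intervals that lay within -0.25 to 0.26. None of the 4 kinase and passenger complex genes passed the test, nor did 9 of the 10 spindle motors and assembly factors. Over the 29 genes that were not called, the lowest bound of an interval was -0.53 (Mad2l1) and the highest 0.51 (Hmmr).

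Of the 15 calls 10 held under every alternative and with each library left out: Foxm1, Mki67, Cdc20, Ube2c, Cdc25c, Kif23, Kif15, Bub1, Kif20a, and Cenpe. The other 5 did not. Cdk1 lost its call without actB replicate 2 (adjusted p = 0.125), Pb replicate 1 (0.0641), Pb replicate 3 (0.093), or number 2 in every group (0.0832), and with no filter on low genes (0.0502). Ccnb2 lost it without actB replicate 1 (adjusted p = 0.0874), actB replicate 3 (0.0819), or Pb replicate 2 (0.0994), under median scaling (0.0899), with edgeR and RLE factors (0.0804), and with the groups compared fitted alone (0.0532). Ndc80 lost it without the same libraries (0.096, 0.0956, and 0.0813), under median scaling (0.152), quantile normalization (0.0981), and edgeR with TMM (0.0563) or RLE factors (0.138), and with the groups alone (0.0797). Top2a lost it without these libraries and Pb replicate 3 (0.101, 0.175, 0.146, and 0.0949), with no filter (0.0751), under median scaling (0.358), with edgeR and TMM (0.158), RLE (0.382), or TMM with the block (0.122), and with the groups alone (0.0511). Pttg1 kept its call with each library left out and lost it under median scaling (adjusted p = 0.0504), quantile normalization (0.111), and edgeR with RLE factors (0.0765).

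The same comparison could be made between Pb and actB with GSK343, which shares no library with the first, although Pb with GSK343 carry the label of another cytokine. There 5 of the 44 genes rose and 11 fell, with a median log2 fold change of -0.12, where 26.4% of all genes tested rose and 44.2% fell. Of the 15 genes called with DMSO 14 were called in the same direction with GSK343, which is 93.3% of the calls with DMSO and 87.5% of those with GSK343, and 0 in the opposite direction. Over all genes tested these shares were 91.1 and 90.1%. Libraries of the same number deviated together across groups and 1 fit gave both comparisons, so their likeness is not a fully separate observation. Kif23 again fell most, from 36.3, 32.1, and 38.6 to 18.3, 17.8, and 18.7 RPKM (-0.95 ± 0.093 SE, adjusted p = 1.35e-06), followed by Kif15, from 21.2, 19.9, and 22.0 to 12.5, 12.1, and 12.01 (-0.77 ± 0.072 SE, adjusted p = 9.31e-07). Bub1 fell from 32.6, 30.04, and 34.4 to 21.7, 20.3, and 21.4 RPKM (-0.61 ± 0.078 SE, adjusted p = 1.72e-05). Foxm1 rose from 41.1, 38.4, and 42.1 to 56.7, 51.7, and 53.8 RPKM (0.41 ± 0.055 SE, adjusted p = 2.35e-05), Cdc20 by 0.45 ± 0.15 (SE, adjusted p = 0.0141), and Mki67 by 0.39 ± 0.14 (SE, adjusted p = 0.0241). Cdk1 was called with DMSO and not here in the fit without the block, at 47.7, 42.2, and 52.4 RPKM in actB and 56.1, 53.5, and 59.7 in Pb (0.25 ± 0.13 SE, adjusted p = 0.101), but it rose with the block (adjusted p = 0.0009) and with edgeR and TMM factors (0.0153). Cenpf (-0.26 ± 0.087 SE, adjusted p = 0.0169) and Dlgap5 (-0.28 ± 0.089 SE, adjusted p = 0.0122) were called here and not with DMSO. Cenpf lost this call under median scaling (adjusted p = 0.211), quantile normalization (0.15), edgeR with TMM (0.0568) or RLE factors (0.18), and without number 2 (0.0833), and Dlgap5 under the same scalings (0.161, 0.123, 0.0523, and 0.147). Of the 16 calls 6 held under every alternative run and with each library left out: Bub1, Cenpe, Foxm1, Kif15, Kif23, and Ndc80. The difference between the treatments was tested as the interaction given last, which called 0 of the 44 genes. Cenpe fell by 0.50 (SE 0.076), and the smallest differences were those of Kif18b, Anln, Ect2, and Tpx2, from -0.018 to 0.0053. With the replicate block 7 rose and 21 fell, against 28.8 and 48.1% of all genes tested. Those added as higher were Cdk1 and Hmmr (adjusted p = 0.0115), and those added as lower were Mad2l1 (0.00138), Kif11 (0.000968), Spc24 (0.0261), Ttk (0.0391), Cenpa (0.0104), Racgap1 (0.0149), Plk1 (0.0382), Aurkb (0.00527), Espl1 (0.0475), and Kif4 (0.0237). Without number 2 there were 5 that rose and 18 that fell, and with libraries scaled to equal medians 8 rose and 6 fell. Every Pb library was above every actB library for 6 of the 44 genes and below for 14, against 27.7 and 45.7% of all genes tested. With libraries left out singly, 1 gene, Foxm1, remained called as higher without actB GSK343 replicate 2, and 16 were called lower.

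**Figure D3:**
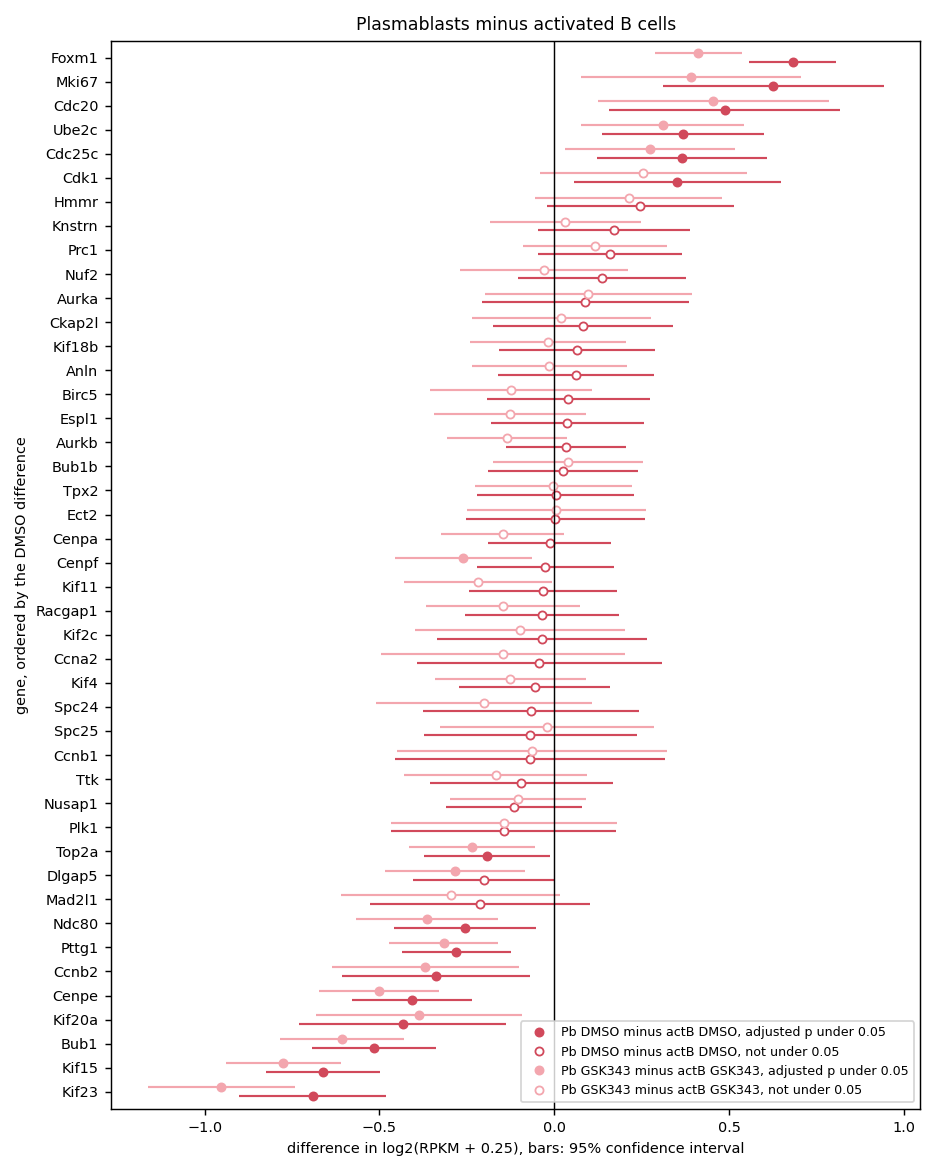
Difference in log2(RPKM + 0.25) between Pb and actB with DMSO (dark) and with GSK343 (light) for each of the 44 genes, ordered by the DMSO difference, with 95% confidence intervals and filled points at an adjusted p under 0.05. Foxm1 is at the top (0.68 and 0.41) and Kif23 at the bottom (-0.69 and -0.95), and most genes between Hmmr and Plk1 have open points near 0.

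Among the 144 other mitotic genes 33 rose and 52 fell in Pb against actB with DMSO, with a median log2 fold change of -0.060. These are 22.9 and 36.1% of the list, both below the 27.3 and 42.4% of all genes tested, and how they split among the smaller lists is a description. Centromere genes rose in 6 and fell in 9 of 30, with Ska3 (0.77 ± 0.10, SE) and Apitd1 (-1.44 ± 0.091) as the largest changes, both subunits of kinetochore complexes, and with Hjurp (0.44 ± 0.064), the chaperone of CENP-A, and Cenpw (0.31 ± 0.11) among those that rose. Of the anaphase-promoting complex and its regulators 4 rose, led by Ube2s (0.41 ± 0.12), which extends ubiquitin chains after UBE2C, and by Cdc16 (0.36 ± 0.065) and Anapc13 (0.28 ± 0.075), and 8 fell, led by Anapc7 (-0.69 ± 0.062) and Anapc10 (-0.69 ± 0.096). Entry kinases and phosphatases rose in 4, among them Cdc25b (0.42 ± 0.060), Cks1b (0.41 ± 0.099), and Cdc25a (0.30 ± 0.090), and fell in 4, led by Melk (-0.63 ± 0.068) and Bora (-0.47 ± 0.11). Cohesin and condensin genes also divided, 5 that rose, led by Ncaph2 (0.44 ± 0.043), Ncapd3 (0.37 ± 0.066), and Stag1 (0.30 ± 0.065), against 8 that fell, led by the cohesin regulators Pds5b (-0.67 ± 0.048) and Pds5a (-0.59 ± 0.054). In the cytokinesis list 5 rose, led by Sept11 (0.39 ± 0.12), Tsg101 (0.35 ± 0.073), and Sept9 (0.24 ± 0.050), and 6 fell, led by Arhgap11a (-0.60 ± 0.091), a RhoA GTPase-activating protein. Of 26 spindle and centrosome genes 7 rose, led by Fam83d (0.56 ± 0.12), Haus3 (0.46 ± 0.075), and Plk4 (0.28 ± 0.095), and 8 fell, led by Psrc1 (-1.56 ± 0.14) and Spag5 (-1.34 ± 0.12). Checkpoint genes fell in 4 of 11, led by Trip13 (-0.62 ± 0.13), Zwilch (-0.35 ± 0.095), and Kntc1 (-0.34 ± 0.068), and Gsg2 (haspin) rose (0.19 ± 0.071). Mybl2, which works with FOXM1 at CHR promoters, was at 66.5, 59.8, and 70.7 RPKM in actB and 30.7, 27.3, and 34.0 in Pb and fell (-1.09 ± 0.11 SE, adjusted p = 2.47e-06), while Foxm1 rose. Of the 9 genes of its list 5 fell and 1, Lin54 (0.90 ± 0.094), rose (55.6 and 11.1%).

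The last question was what the EZH2 inhibitor does to these genes. In actB with GSK343 against DMSO 1 of the 44 genes rose, Foxm1, and 0 fell, where 8.20% of all genes tested rose and 2.16% fell. At an unadjusted p under 0.05 there were 4 with a higher and 0 with a lower level, against 17.6 and 7.40% of all genes tested. Every library with GSK343 was above every library with DMSO for 3 of the 44 genes and below for 0, against 18.3 and 7.52% of all genes tested. The median log2 fold change was 0.10, beside 0.028 over all genes tested, and 37 of the 44 values were above 0. The 44 genes moved together between libraries, as given above for number 2, so these signs are not separate observations. The share of all genes tested with such a sign is not given here. The median was 0.074 without number 2 in every group, 0.18 without actB GSK343 replicate 2, and -0.018 without actB DMSO replicate 2. Foxm1 was at 35.9, 32.6, and 36.6 RPKM with DMSO and 41.1, 38.4, and 42.1 with GSK343, with no overlap and a log2 fold change of 0.21 ± 0.055 (SE, adjusted p = 0.0304). This call was lost without actB DMSO replicate 1 (adjusted p = 0.0585) or 2 (0.0729), without actB GSK343 replicate 1 (0.0884) or 3 (0.121), and when the groups compared were fitted alone (0.141).

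With the replicate block 8 of the 44 genes rose in actB, where 14.7% of all genes tested rose and 6.24% fell: Racgap1, Knstrn, Kif23, Foxm1, Cdc25c (adjusted p = 0.00805), Birc5 (0.0388), Kif4 (0.047), and Ccnb2 (0.0491). With edgeR, TMM factors, and the block the first 5 were called as higher and Bub1 as lower, and Birc5, Kif4, and Ccnb2 were not called. Racgap1, the partner of Kif23 in centralspindlin, was at 49.3, 40.7, and 49.7 RPKM with DMSO and 61.5, 49.6, and 62.7 with GSK343. Within replicate numbers its log2 difference was 0.32, 0.28, and 0.33, and its log2 fold change was 0.31 ± 0.097 (SE, adjusted p = 0.0622) without the block and had an adjusted p of 0.00262 with it. Knstrn, a kinetochore and spindle protein, was at 24.4, 19.7, and 22.7 RPKM with DMSO and 26.8, 25.3, and 28.5 with GSK343 (0.27 ± 0.096 SE, adjusted p = 0.0914, adjusted p = 0.00525 with the block). Kif23 was at 32.0, 26.8, and 33.6 with DMSO and 36.3, 32.1, and 38.6 RPKM with GSK343 (0.21 ± 0.093 SE, adjusted p = 0.177, adjusted p = 0.0174 with the block). The rises were small next to those of the same genes in actB against nB, and the next largest after these and Foxm1 was that of Cdc25c (0.21 ± 0.11, SE). Knstrn shares 2.5% of its exon bases with a gene on the other strand and 3.0% with one on its own strand.

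Counted within replicate numbers, 31 of the 44 genes (70.5%) were higher with GSK343 in all 3 pairs of actB libraries and 1, Bub1, was lower in all 3, while 35.5% of all genes tested were higher in all 3 and 23.0% lower. The median difference of the 44 genes was 0.063, 0.14, and 0.089 for numbers 1, 2, and 3, against 0.023, 0.036, and 0.025 over all genes. Bub1 was at 37.2, 30.7, and 35.8 RPKM with DMSO and 32.6, 30.04, and 34.4 with GSK343, with differences of -0.19, -0.030, and -0.059. The genes with the smallest differences were Hmmr (-0.027 ± 0.12, SE), Pttg1 (-0.021 ± 0.069), Kif15 (-0.017 ± 0.072), and Aurka (0.010 ± 0.13). The sums of 2 marker lists moved with the inhibitor in actB: the myeloid genes from 4.12 to 5.44 RPKM with DMSO to 8.31 to 14.1 with GSK343, of which Itgam held a mean of 4.27 and 9.95, with S100a8 and S100a9 at 0 reads, and the plasma cell genes from 485 to 522 to 549 to 669 RPKM. Their part in these differences was not tested. Without number 2 in every group 3 genes rose in actB, Racgap1, Foxm1, and Kif23.

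In Pb 0 of the 44 genes rose and 0 fell with GSK343 by limma and by edgeR, where 7.90% of all genes tested rose and 5.0% fell. At an unadjusted p under 0.05 limma had 0 with a higher and 1 with a lower level, against 15.2 and 11.8% of all genes tested. The groups did not overlap for 2 genes that were above and 2 that were below, against 18.8 and 15.3% of all genes tested. The median log2 fold change was 0.0020, with 22 values above and 22 below 0. With the block Racgap1 rose and Bub1 and Aurkb fell, where 13.6 and 10.7% of all genes did. Without number 2 Racgap1 rose and Bub1 fell. Racgap1 was at 47.0, 43.0, and 45.9 RPKM with DMSO and 54.0, 48.0, and 54.2 with GSK343 (0.20 ± 0.097 SE, adjusted p = 0.214, adjusted p = 0.014 with the block), with no overlap. Bub1 was at 25.3, 22.2, and 24.8 with DMSO and 21.7, 20.3, and 21.4 RPKM with GSK343 (-0.19 ± 0.078 SE, adjusted p = 0.15, adjusted p = 0.0128 with the block), again with no overlap. The other 2 of the 4 largest differences were those of Spc25 (0.14 ± 0.13, SE) and Knstrn (0.13 ± 0.096). Aurkb was at 89.6, 82.0, and 92.3 with DMSO and 83.6, 75.6, and 83.6 RPKM with GSK343 (-0.12 ± 0.076 SE, adjusted p = 0.352, adjusted p = 0.0346 with the block). The smallest differences were those of Prc1, Top2a, Ndc80, and Kif18b, from -0.0053 to 0.0056. Within replicate numbers 14 genes were higher in all 3 pairs and 9 lower, against 29.6 and 26.6% of all genes tested. Marker lists also moved in Pb: the 5 B cell genes summed to 903 to 926 RPKM with DMSO and 745 to 877 with GSK343, with Ms4a1 and Pax5 called as lower, and the 7 myeloid genes to 0.465 to 0.913 and 1.01 to 1.26 RPKM, with none called and with S100a8 and S100a9 at 0 reads. The 5 plasma cell genes summed to 3065 to 3215 and 3129 to 3396 RPKM, with 1 called as higher and 1 as lower. Among them Sdc1 had means of 29.7 and 55.3 RPKM, and Irf4 of 371.9 and 312.9. The part of these in the differences in Pb, and in those between Pb and actB, was not tested.

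Whether the response to GSK343 differed between Pb and actB was tested as an interaction. For 0 of the 44 genes did it pass, by limma or by edgeR, where 0.0974% of all genes tested had a higher and 0.150% a lower response in Pb, and at an unadjusted p under 0.05 limma had 0 higher and 1 lower, against 2.82 and 6.18% of all genes tested. The median of the difference was -0.083, beside -0.023 over all genes tested, and 36 of the 44 values were below 0. It was -0.047 without number 2 in every group and 0.020 without actB DMSO replicate 2. The signs of the 44 values are again not separate observations, and the share over all genes tested is not given here. Foxm1 differed most, with an interaction of -0.27 ± 0.078 (SE, adjusted p = 0.211), and an adjusted p of 0.0585 with the block, under which 0 of the 44 genes passed as well, against 0.257% higher and 0.478% lower of all genes tested. Its log2 differences within numbers were 0.19, 0.24, and 0.20 in actB and 0.010, -0.12, and -0.068 in Pb. Kif23 came next (-0.26 ± 0.13 SE, adjusted p = 0.626), with 0.18, 0.26, and 0.20 in actB and -0.13, 0.072, and -0.090 in Pb, then Mki67 (-0.24 ± 0.20, SE) and Cenpf (-0.23 ± 0.12). Ccnb1, Tpx2, Ect2, and Plk1 differed least, from -0.0058 to 0.0071. In 4 genes, Aurkb, Cenpf, Kif11, and Mki67, every pair was above 0 in actB and below 0 in Pb (9.09% of the 44 and 2.81% of all genes tested). In 12 genes, among them Racgap1, Knstrn, Cdc20, and Ube2c, every pair was above 0 in both cell types (27.3 and 19.3%), and in Bub1 every pair was below 0 in both (2.27 and 13.5%). These shares were not tested.

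**Figure D4:**
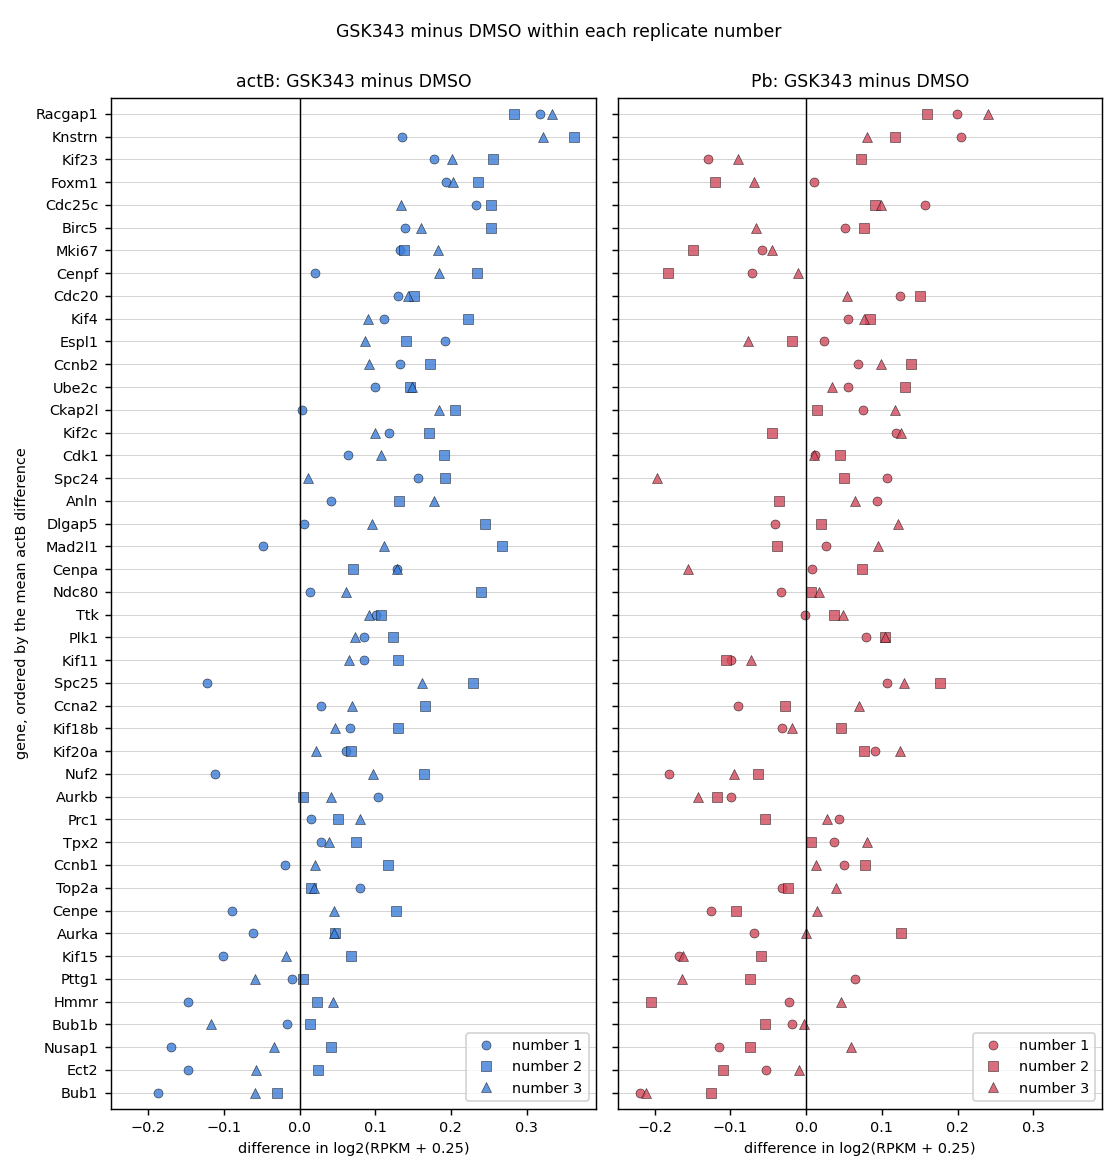
Difference in log2(RPKM + 0.25) between GSK343 and DMSO for the 44 genes within each replicate number (circle, square, and triangle for numbers 1, 2, and 3), in actB (left) and Pb (right), ordered by the mean difference in actB. In actB most points lie to the right of 0, with Racgap1 at the top (0.28 to 0.33), and in Pb they lie on both sides, from Bub1 at -0.22 to Racgap1 at 0.24.

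**Figure D5:**
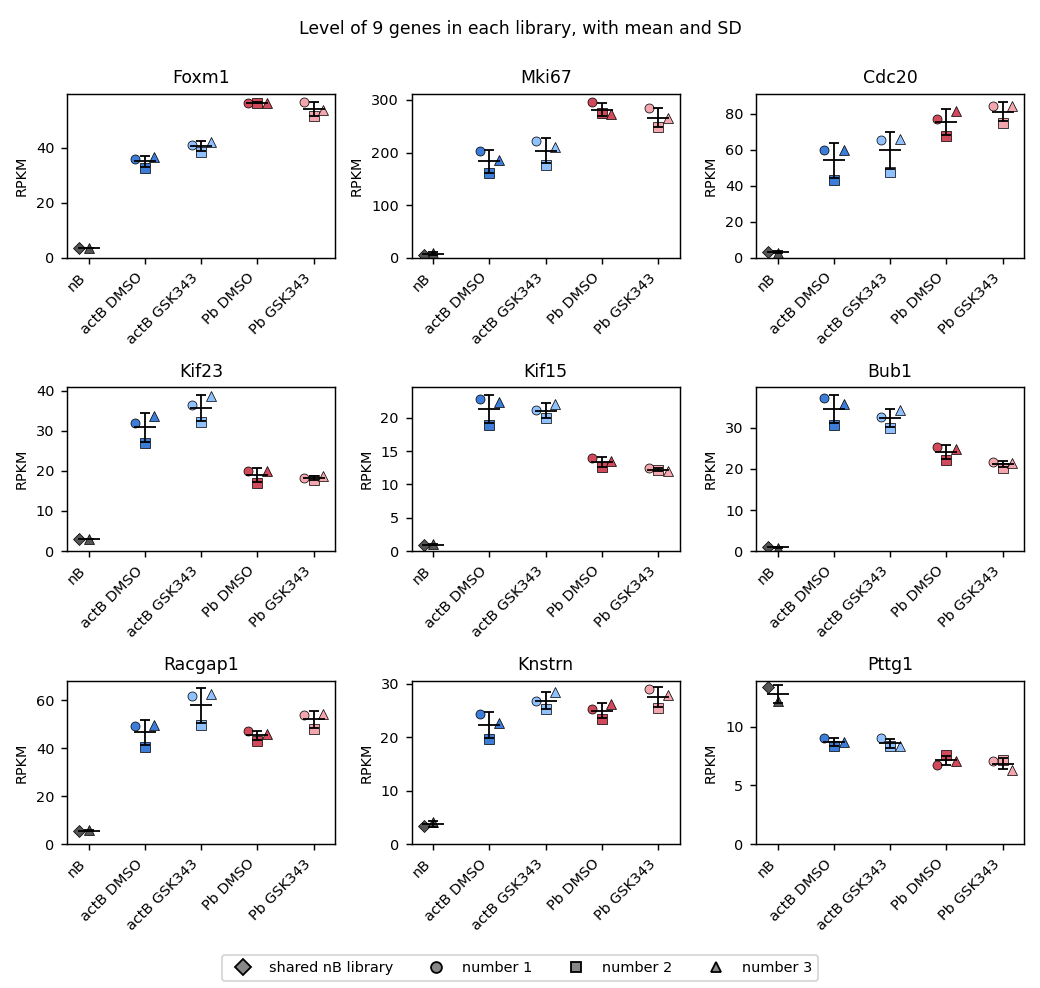
Level in RPKM of 9 of the genes in every library of the 5 groups, with symbols for the replicate number and bars for the mean and SD. Foxm1, Mki67, and Cdc20 are highest in Pb, Kif23, Kif15, and Bub1 in actB, Racgap1 and Knstrn have higher means with GSK343 in both cell types, and Pttg1 is highest in nB.

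In mm9 with the GENCODE vM1 annotation these genes lie at chr6:128312985-128325911 (Foxm1), chr7:142881471-142908062 (Mki67), chr4:118105506-118109957 (Cdc20), chr9:61765087-61794606 (Kif23), chr9:122860199-122927843 (Kif15), chr2:127626858-127657601 (Bub1), chr15:99450927-99482087 (Racgap1), and chr2:118639739-118663432 (Knstrn, there under the name D2Ertd750e). The values count reads over all exons of a gene, so no transcript, UTR, or exon is resolved. For 8 of the 44 genes exon bases are shared with a gene on the other strand, at most 32.3% of them (Kif20a), then 22.8% for Ube2c with Tnnc2, 15.1% for Kif4 with Pdzd11, and 14.6% for Ccna2 with Exosc9.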

How the data were processed

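RNA was taken from 3 libraries of each of 5 groups, 500 ng of total RNA each, and poly(A) RNA was sequenced as stranded paired-end reads of 50 bp. Per the labels and the study's methods, the authors mapped reads to mm9 with TopHat2 and the UCSC Known Gene transcripts and counted reads over the exons of each Entrez gene with GenomicRanges. Whether counting used strand is not given in the sources used here. The deposited values are RPM (reads of a gene scaled by all reads counted in genes), although the table is named for RPKM, and the deposited gene length was used to compute RPKM from them. All values of genes with reads came out as whole reads within 0.05 reads and a small allowance for the rounding of the values. The sums were 19421830 to 26307413 per library, so reads were recovered for the count test. Rows without a symbol, 92 of 21761, held at most 0.09% of a library's reads and were left out. nB replicates 1 and 2 differed by less than the sampling noise (chi-square per degree of freedom 0.00958, against at least 3.58 for every other pair), and their RPM were averaged as 1 library. For the count test the reads of replicate 1 stood for this library.

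Values were tested as log2(RPKM + 0.25) with limma 3.58.1 (trend) in R 4.3.3 on 11299 genes with at least 1 RPKM in at least 3 of 15 columns, over 14 libraries of all groups with 9 residual degrees of freedom, and p-values were adjusted by Benjamini-Hochberg over all of these genes. An exact permutation test of 3 against 3 libraries cannot give a p below 0.1, so none was used. The alternatives were 2 other pseudocounts, 2 other filters, median scaling, quantile normalization, the compared groups alone, all 15 columns, each library left out, the replicate number as a block, and the quasi-likelihood test of edgeR 4.0.16 with TMM and RLE factors. Leaving out replicate number 2 and edgeR with the block were added after the data were examined. The labels number libraries 1 to 3 in every group, and deviations of same-numbered cultured libraries from their group means correlated at 0.158 to 0.502 (number 1), 0.435 to 0.713 (number 2), and 0.219 to 0.356 (number 3), and those of different numbers at -0.60 to 0.37, so the numbers were taken to pair the libraries. The scripts were tested on simulated data.

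The 44 genes and the other lists were chosen with earlier results of these data known. Named genes are the leading genes of each role, the 4 largest and 4 smallest changes of a comparison, and called genes that oppose the median. In the other lists they are the 2 largest changes and up to 3 called genes that oppose the list's median. Positions come from GENCODE vM1 on mm9 and promoters from RefSeq on GRCm38.p6. Near-identical copies were searched with minimap2 2.31. Kifc1 and Hba-a1 were not analysed here. Intervals are at 95% and cover the spread between libraries, and the limit of 3 reads covers counting error only.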

Additional observations from a re-analysis of the deposited data

How the results depend on the processing

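All 44 calls against nB kept their direction and stayed past the threshold in both comparisons under every alternative run. The median log2 fold change against nB was 3.61 in actB and 3.59 in Pb with a pseudocount of 1, and 4.29 and 4.15 with 0.05. In Pb it was 4.23 with edgeR (TMM) and 4.25 with edgeR (RLE). With single libraries left out it ran from 4.07 to 4.24 in actB and from 3.89 to 4.04 in Pb (3.92 without Pb replicate 1).

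For Pb against actB with DMSO, median scaling and edgeR (RLE) both gave 10 higher and 5 lower, and edgeR (TMM) with the replicate block gave 17 higher and 8 lower. Median scaling moved the median of all genes from -0.12 to -0.0048, and the 44 genes moved with it. With single libraries left out 5 to 7 were higher and 6 to 11 lower, and the median ran from -0.12 to 0.037.

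For Pb against actB with GSK343, median scaling gave 8 higher and 6 lower (median 0.014), edgeR (RLE) 8 and 5 (median 0.016), and edgeR (TMM) with the block 16 and 9 (median 0.022). The limma block gave 7 higher and 21 lower, and leaving out number 2 gave 5 and 18. Single libraries left out gave 1 to 6 higher and 7 to 16 lower, with a median of -0.20 to -0.071. Under these scalings 4 genes that fell with the limma block turned to values just above 0: Aurkb (0.0029 with median scaling, 0.0064 with RLE, and 0.011 with TMM and the block), Kif4 (0.013, 0.016, and 0.020), Espl1 (0.013, 0.013, and 0.019), and Plk1 (0.0017 with TMM and the block). The median of all genes moved from -0.14 to -0.0027 with median scaling, -0.0094 with RLE, and -0.0066 with TMM and the block. The cause of the turn was not tested.

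For GSK343 in actB, quantile normalization and all 15 columns gave 2 higher, the compared groups alone 0, the replicate block 8, leaving out number 2 gave 3, and edgeR (TMM) with the block 5 higher and 1 lower. Single libraries left out gave 0 to 2 higher and a median of -0.018 to 0.18. In Pb the limma block and edgeR (TMM) with the block both gave 1 higher and 2 lower, leaving out number 2 gave 1 and 1, and single libraries left out gave 0 and 0, with a median of -0.041 to 0.045. The interaction stayed at 0 calls under every alternative run, with a median of -0.16 to 0.020 with single libraries left out.

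Standard errors of single genes were 0.055 to 0.17 between cultured groups and 0.061 to 0.19 against nB, where only 2 libraries carry the naive spread. The replicate block, with the shared naive library taken as number 1 or as number 2, changed no call against nB.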

Other observations

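Of the 144 other mitotic genes 5 rose and 0 fell with GSK343 in actB: Sept9, a septin of the cleavage furrow, from 24.5, 24.9, and 22.7 to 32.2, 32.2, and 29.6 RPKM (0.38 ± 0.050 SE, adjusted p = 0.000793), the kinase Melk (0.26 ± 0.068 SE, adjusted p = 0.0287), the augmin subunit Haus8 (0.36 ± 0.089 SE, adjusted p = 0.0235), the tubulin-binding protein Stmn1 (0.35 ± 0.078 SE, adjusted p = 0.014), and the spindle pole protein Numa1 (0.20 ± 0.044 SE, adjusted p = 0.0121). These are 3.47 and 0% of the list, against 8.20 and 2.16% of all genes tested. In Pb 4 rose and 2 fell (2.78 and 1.39%, against 7.90 and 5.0%). Sept9 (0.27 ± 0.050 SE, adjusted p = 0.00466), Melk (0.27 ± 0.068 SE, adjusted p = 0.023), Haus8 (0.34 ± 0.089 SE, adjusted p = 0.0246), and Stmn1 (0.28 ± 0.078 SE, adjusted p = 0.0344) rose, and the contractile ring kinase Rock1 (-0.17 ± 0.041 SE, adjusted p = 0.0158) and the centrosome scaffold Cep192 (-0.22 ± 0.051 SE, adjusted p = 0.0162) fell. For 0 of the 144 did the response differ between Pb and actB at the threshold (limma, adjusted over all genes tested). Between Pb and actB with GSK343 25 rose and 64 fell, 17.4 and 44.4% of the list, against 26.4 and 44.2% of all genes tested.

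Genes of DNA replication, the step before mitosis, are the nearest set for comparison. Of 28 such genes 25 rose and 2 fell in actB against nB (89.3 and 7.14%, against 40.9 and 36.3% of all genes tested), with a median log2 fold change of 2.25, led by Rrm2 (4.40 ± 0.19, SE), a subunit of ribonucleotide reductase, and Cdc6 (4.37 ± 0.12), and with Rfc1 (-0.38 ± 0.076) and Cdt1 (-0.22 ± 0.091) lower. In Pb against actB with DMSO 6 rose and 12 fell (21.4 and 42.9%, against 27.3 and 42.4% of all genes tested), with a median of -0.11, beside -0.12 over all genes. Cdt1, the licensing factor, was at 15.5, 13.6, and 15.8 RPKM in actB and 23.6, 24.3, and 25.6 in Pb (0.70 ± 0.082 SE, adjusted p = 7.12e-06), and Gins1 (0.44 ± 0.093, SE) and Cdc6 (0.41 ± 0.11) also rose. Rrm1, the other reductase subunit, fell (-0.81 ± 0.11 SE, adjusted p = 2.84e-05), and so did Tk1, thymidine kinase (-0.80 ± 0.11 SE, adjusted p = 3.15e-05). With GSK343 Rfc2 rose in actB (0.15 ± 0.040 SE, adjusted p = 0.0305) and Pole fell in Pb (-0.23 ± 0.043 SE, adjusted p = 0.00605). Whether these genes differ as a set from the mitotic genes was not tested.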
